A study of Mus musculus with 12 samples.

Results

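The genes described are 10 mouse genes of the NRF2 oxidative stress pathway, read out of 27179 genes counted by RNA sequencing in macrophages of the mammary ducts. They were picked by symbol, mapped from Entrez identifiers, and all 10 were found: the regulators Nfe2l2, Keap1 and Sqstm1, the thioredoxin-system genes Txnrd1, Srxn1 and Prdx1, the glutathione genes Slc7a11, Gclc and Gclm, and the quinone reductase Nqo1. They were chosen with their stage levels in these same libraries known, so the levels and differences given for them are a description, and no test of them supports anything. Macrophages labelled as ductal were sorted from the mammary glands of female C57BL/6 mice at 4 stages: Virgin, Pregnant (day 16.5), Lactating, and Post-weaning (1 month after weaning). A stage is represented by 3 libraries, which the labels call biological replicates, and no genotype, transgene or treatment is named for any of them. How old the mice were, how many stood behind a library and which gates were used in the sort is not stated in the labels.

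NRF2, the product of Nfe2l2, is a transcription factor that KEAP1 holds in the cytoplasm and passes to a CUL3 ubiquitin ligase for destruction. Oxidants and electrophiles modify KEAP1, NRF2 then accumulates, pairs with a small MAF protein and binds antioxidant response elements in front of genes for glutathione synthesis, thioredoxin recycling, quinone reduction and NADPH supply, where BACH1 competes with it. SQSTM1, also called p62, is an autophagy receptor that binds KEAP1 and is itself encoded by an NRF2 target, and in macrophages the pathway is known for tempering inflammatory gene expression and for handling heme, iron and oxidised lipid.

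The antioxidant response element has the core TGACNNNGC, and the sites found near the gene starts are shown because they are what a reader would look for in genes named as NRF2 targets. RefSeq promoter windows of build GRCm38.p6, covering 250 bases before to 50 bases after each gene start, existed for 9 of the 10 genes (11 windows), and both strands were searched. The core was present in 5 of those 9 genes, against 14.0% of the 27025 genes with a window. Of 37 further NRF2 targets, taken up below, 28 had a window and 8 of these held the core. Each site in the 9 genes is printed with its core in capitals, 5′ to 3′ on the strand that holds it.
Srxn1, chr2:152105542-152105570, minus strand: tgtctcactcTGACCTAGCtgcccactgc
Txnrd1, chr10:82859104-82859132, minus strand: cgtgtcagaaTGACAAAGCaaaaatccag
Gclm, chr3:122245413-122245441, minus strand: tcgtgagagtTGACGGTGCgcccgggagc
Prdx1, chr4:116685456-116685484, minus strand: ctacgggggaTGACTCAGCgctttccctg
Nfe2l2, chr2:75704885-75704913, minus strand: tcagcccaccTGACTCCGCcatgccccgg

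The Txnrd1 site lay in 1 of its 3 windows, and the Srxn1 site began 28 bases past the gene start, in transcribed sequence. A second motif, the AP-1 element TGANTCA, was searched because it can overlap the antioxidant response element, and it was found in the windows of Srxn1 and Prdx1, against 8.97% of all genes with a window. It is shown in capitals in the same way.
Srxn1, chr2:152105412-152105438, plus strand: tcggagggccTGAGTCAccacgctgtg
Srxn1, chr2:152105469-152105495, plus strand: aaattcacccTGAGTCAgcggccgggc
Prdx1, chr4:116685352-116685378, plus strand: aacgaggaaaTGACTCAaagggcagtg
Prdx1, chr4:116685458-116685484, plus strand: gggaaagcgcTGAGTCAtcccccgtag

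The last of these overlaps the antioxidant response element of Prdx1 on the other strand. The Srxn1 site at chr2:152105469-152105495, read with the gc that follows it, matches the core except for G in place of C. The search allowed no such variant and did not count that site as an antioxidant response element. Neither motif was in the windows of Sqstm1, Slc7a11, Nqo1 and Keap1, which says only that these letters are not in that stretch. Carrying the core did not go with a shared course across stages: Srxn1 and Txnrd1 were highest in lactation, whereas Gclm, Prdx1 and Nfe2l2 did not have their highest mean there.

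Levels are CPM, the count scaled to a fixed TMM-adjusted library total, and a level per kilobase of exon (CPM per kb) is used wherever genes are compared with each other. Library totals ran from 6926273 to 21204704 counts, Lactating replicates 1 and 2 being the shallowest, and PCR copies could not be told from separate molecules. All 15 macrophage markers had counts in every library, and their summed share of counts ran from 2.21% to 2.31% in Virgin, 4.63% to 4.76% in Pregnant, 1.52% to 3.36% in Lactating and 2.78% to 3.13% in Post-weaning libraries. In Pregnant vs Virgin the median log2 fold change of the 15 was -0.06, and 7 were above 0. Of them only Lyz2 rose there (0.442% of all genes) and none fell. In Lactating vs Pregnant Lyz2 fell (1.2% of all genes lower) and Cd14 rose (2.65% higher). Cx3cr1 fell in Lactating vs Virgin (0.9% lower) and rose in Post-weaning vs Lactating (0.458% higher). With each library left out in turn, these results held in 7, 9, 8, 1 and 3 of 12 fits, in that order. Neutrophil and lymphocyte markers made up at most 0.00181% of any library, with Ly6g, Ngp and S100a9 at 0 counts throughout, fibroblast and endothelial markers at most 0.0397%, and epithelial markers at most 0.110%. Lactating replicate 3 stood apart: it had the fewest genes with a count (10178), the lowest mean correlation with the other libraries of its stage (0.713, against 0.778 to 0.917 for the other 11), and 7.47% of its counts from 12 milk protein genes, against at most 0.205% in Lactating replicates 1 and 2. Milk genes also moved with stage: Pregnant replicate 1 held 1.53%, and 6 of the 12 rose in Lactating vs Virgin (1.04% of all genes tested) and 4 in Pregnant vs Virgin (0.442%). Of 12 epithelial markers 2 fell in Lactating vs Virgin (0.9% of all genes). They were Krt19, which had no counts in Lactating libraries, and Krt7, whose fall held in 4 of 12 fits with a library left out. The part of these genes in the results was not tested. Results that rest on Lactating replicate 3 are given with and without it. In bulk samples such as these, fewer cells of a type and less RNA per cell cannot be told apart.

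Sqstm1, Txnrd1 and Srxn1 shared a course: low in Pregnant, highest in Lactating, and near the Virgin level in Post-weaning libraries. In Lactating over Virgin libraries they were 2.13-, 2.93- and 5.12-fold higher, and in Lactating over Pregnant libraries 4.63-, 4.41- and 12.6-fold higher. The other 7 genes did not follow them. Slc7a11 and Gclc had their highest means in lactation. The Lactating libraries of Slc7a11 exceeded the Virgin ones but overlapped the other stages, and those of Gclc overlapped every stage. Gclm had its lowest mean in lactation, and Nqo1 and Keap1 were near the limit of counting or rested on a single library. The highest mean of Prdx1, in pregnancy, and the lowest mean of Nfe2l2, in lactation, each rested on 1 library as well: in Lactating over Pregnant libraries the log2 fold change of Prdx1 was -0.16 and turned to 0.11 without Pregnant replicate 3, and that of Nfe2l2 was -0.04 and turned to 0.20 without Lactating replicate 3.

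**Figure D1:**
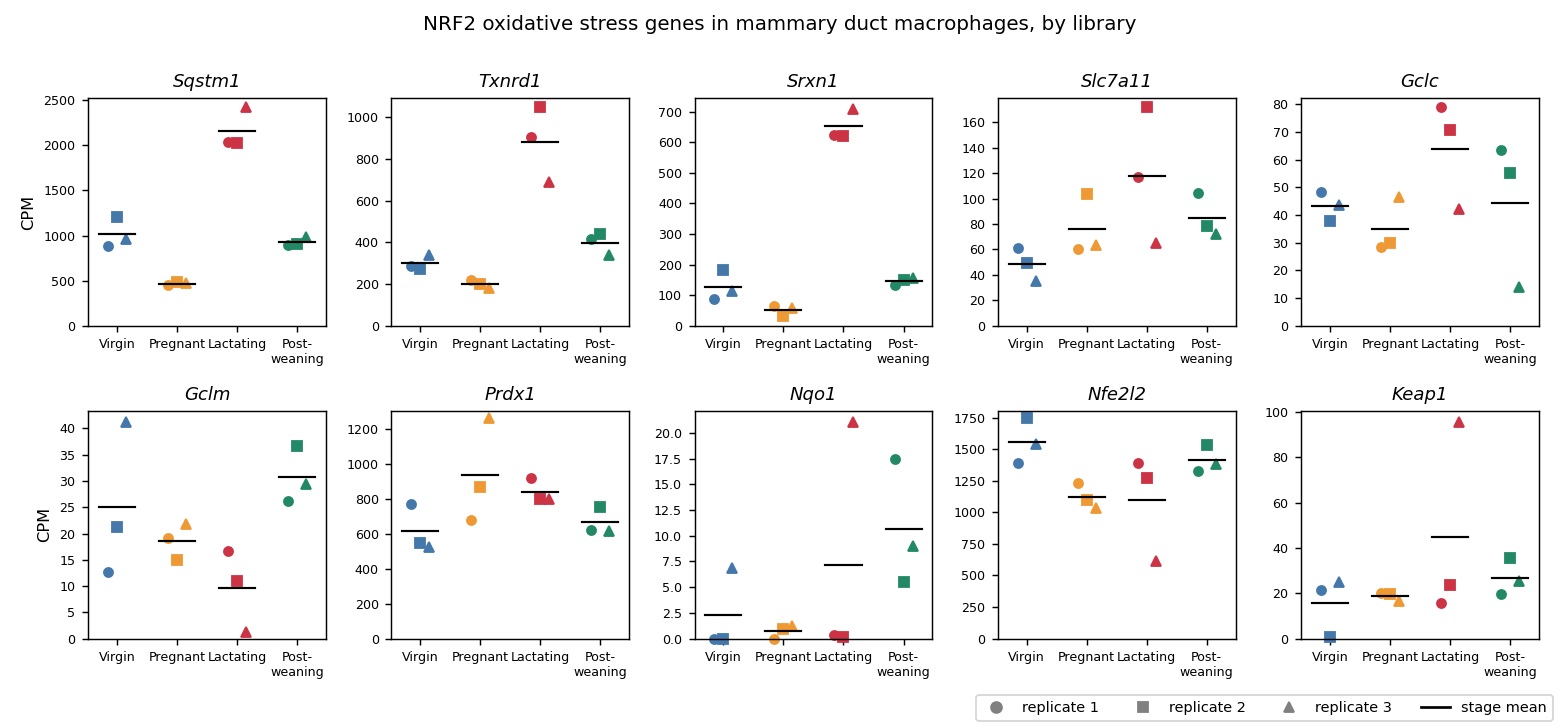
Level of each of the 10 genes in CPM (vertical axes, linear, starting at 0) in the 12 libraries by stage; each point is a library, its shape the replicate number, and the line the stage mean of 3. The 3 Lactating libraries lie above all others for Sqstm1, Txnrd1 and Srxn1, while a triangle (Lactating replicate 3) lies far from its stage for Gclm, Nqo1, Nfe2l2 and Keap1.

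The regulators come first. Nfe2l2 (Entrez 18024, chr2:75675513-75704663) encodes NRF2 itself, whose activity is set mainly through the stability of the protein. Its level was 1388, 1745 and 1539 CPM in Virgin, 1231, 1099 and 1033 CPM in Pregnant, 1394, 1274 and 614 CPM in Lactating, and 1327, 1535 and 1382 CPM in Post-weaning libraries. The Pregnant libraries lay below the Virgin ones without overlap, and Lactating replicate 3 was the lowest of the 12. Without it the Lactating mean was 1334 CPM, above the Pregnant mean of 1121 CPM.

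In Lactating over Virgin libraries the log2 fold change of Nfe2l2 was -0.51 ± 0.27 (SE), and it was -0.27 without Lactating replicate 3. In Pregnant over Virgin libraries it was -0.47 ± 0.27. Per kilobase, Nfe2l2 had the highest level of the 10 genes in Virgin libraries, 631 ± 72.5 CPM per kb (SD, n = 3), and in Post-weaning libraries, 573 ± 43.5 CPM per kb.

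Keap1 (Entrez 50868, chr9:21229730-21239332), the adaptor that brings NRF2 to its ubiquitin ligase, was low: 21.5, 0.951 and 25.1 CPM in Virgin, 20.1, 19.8 and 16.8 CPM in Pregnant, 15.6, 23.6 and 95.7 CPM in Lactating, and 19.7, 35.7 and 25.5 CPM in Post-weaning libraries. Virgin replicate 2 was far below and Lactating replicate 3 far above the other 10, which spanned 15.6 to 35.7 CPM. The log2 fold change in Lactating over Virgin libraries was 1.51 ± 0.91 (SE) and was 0.25 without Lactating replicate 3. An annotated antisense gene, Gm16754, shares 206 exon bases with Keap1, and reads from either strand cannot be told apart here.

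Sqstm1 (Entrez 18412, chr11:50200152-50210820), the p62 autophagy receptor, had the largest shift per kilobase. It measured 882, 1203 and 964 CPM in Virgin, 447, 485 and 470 CPM in Pregnant, 2039, 2025 and 2424 CPM in Lactating, and 900.0, 903 and 986 CPM in Post-weaning libraries. All 3 Lactating libraries exceeded every other library, all 3 Pregnant libraries were below every other, and Virgin and Post-weaning libraries overlapped.

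The log2 fold change of Sqstm1 was -1.12 ± 0.18 (SE) in Pregnant over Virgin, 1.09 ± 0.18 in Lactating over Virgin, 2.21 ± 0.18 in Lactating over Pregnant, -1.22 ± 0.18 in Post-weaning over Lactating and -0.13 ± 0.18 in Post-weaning over Virgin libraries. Without Lactating replicate 3, the value in Lactating over Virgin libraries was 0.95. Per kilobase it had the highest level of the 10 genes in Lactating libraries, 1081 ± 113 CPM per kb, ahead of Prdx1 at 593 ± 48.7 and Nfe2l2 at 443 ± 170.3 CPM per kb, whereas in Virgin libraries it was second to Nfe2l2 at 508 ± 83.3 CPM per kb. The gene shares up to 580 exon bases with Mrnip on the opposite strand, and Mrnip had at most 17.8 CPM in any library.

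The thioredoxin system passes electrons from NADPH to oxidised protein thiols and to peroxiredoxins. Txnrd1 (Entrez 50493, chr10:82833951-82897724), the cytosolic thioredoxin reductase, measured 288, 273 and 341 CPM in Virgin, 220.1, 199 and 179.8 CPM in Pregnant, 903, 1047 and 691 CPM in Lactating, and 416, 439 and 340.4 CPM in Post-weaning libraries. The Lactating libraries exceeded all others and the Pregnant libraries were below all others. The lowest Post-weaning library was level with the highest Virgin library.

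The log2 fold change of Txnrd1 was -0.59 ± 0.20 (SE) in Pregnant over Virgin, 1.55 ± 0.20 in Lactating over Virgin, 2.14 ± 0.21 in Lactating over Pregnant, -1.14 ± 0.20 in Post-weaning over Lactating and 0.41 ± 0.20 in Post-weaning over Virgin libraries. Without Lactating replicate 3, the lowest of its stage, it was 1.65 in Lactating over Virgin libraries.

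Srxn1 (Entrez 76650, chr2:152105524-152111376), sulfiredoxin, repairs peroxiredoxins that peroxide has overoxidised, and it had the largest fold differences of the 3 genes. It measured 86.4, 181 and 114 CPM in Virgin, 65.8, 31.2 and 58.7 CPM in Pregnant, 624, 622 and 711 CPM in Lactating, and 135, 149 and 158 CPM in Post-weaning libraries. The lowest Lactating library was more than 3 times the highest library of any other stage, and Virgin and Post-weaning libraries overlapped.

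The log2 fold change of Srxn1 was -1.29 ± 0.31 (SE) in Pregnant over Virgin, 2.36 ± 0.32 in Lactating over Virgin, 3.65 ± 0.34 in Lactating over Pregnant, -2.15 ± 0.32 in Post-weaning over Lactating and 0.21 ± 0.30 in Post-weaning over Virgin libraries. Without Lactating replicate 3, the value in Lactating over Virgin libraries was 2.25.

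Prdx1 (Entrez 18477, chr4:116685599-116700000), a peroxiredoxin that sulfiredoxin repairs, did not move with Srxn1. It measured 770.1, 548 and 523 CPM in Virgin, 679.7, 869.6 and 1265 CPM in Pregnant, 920.2, 801 and 799.8 CPM in Lactating, and 623, 754 and 618 CPM in Post-weaning libraries. The Lactating libraries exceeded all Virgin and Post-weaning libraries by a small margin, and the Pregnant libraries overlapped all 3 other stages. Its log2 fold change was 0.45 ± 0.24 (SE) in Lactating over Virgin and -0.16 ± 0.24 in Lactating over Pregnant libraries.

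The glutathione genes act in sequence. Slc7a11 (Entrez 26570, chr3:50364936-50499087) is the light chain of the cystine importer, which brings in the cysteine that limits glutathione synthesis. It measured 60.9, 49.3 and 35.4 CPM in Virgin, 60.5, 104 and 63.6 CPM in Pregnant, 117, 172 and 65.0 CPM in Lactating, and 104, 78.1 and 71.8 CPM in Post-weaning libraries. The Virgin libraries were below all Lactating and all Post-weaning libraries, and the other 3 stages overlapped. The log2 fold change in Lactating over Virgin libraries was 1.28 ± 0.37 (SE), and 1.53 without Lactating replicate 3, which was the lowest of its stage. In Post-weaning over Virgin libraries it was 0.80 ± 0.37.

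Gclc (Entrez 14629, chr9:77754535-77794489) encodes the catalytic and Gclm (Entrez 14630, chr3:122245487-122267215) the modifier subunit of glutamate-cysteine ligase, which makes the first step of glutathione synthesis. Gclc measured 48.4, 37.7 and 43.8 CPM in Virgin, 28.5, 29.8 and 46.4 CPM in Pregnant, 79.0, 70.9 and 42.1 CPM in Lactating, and 63.5, 55.2 and 14.0 CPM in Post-weaning libraries. Lactating replicates 1 and 2 were the highest of the 12, but the stages overlapped in each of the 5 comparisons made, and the log2 fold change in Lactating over Virgin libraries was 0.56 ± 0.48 (SE). That value ran from 0.35 to 0.74 with each library left out in turn.

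Gclm measured 12.7, 21.2 and 41.3 CPM in Virgin, 19.1, 15.03 and 21.8 CPM in Pregnant, 16.6, 10.96 and 1.23 CPM in Lactating, and 26.2, 36.7 and 29.4 CPM in Post-weaning libraries. The Post-weaning libraries exceeded all Lactating libraries, with a log2 fold change of 1.69 ± 0.74 (SE). In Lactating over Virgin libraries the log2 fold change was -1.39 ± 0.74, and -0.91 without Lactating replicate 3. The 2 subunits therefore differed in direction in Lactating over Virgin libraries, each by less than 2 SE. Gclm shares exon bases with Gm17494 on the opposite strand and with the pseudogene Gm6061.

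Nqo1 (Entrez 18104, chr8:107388225-107403205), a quinone reductase widely used as a readout of NRF2, was close to absent. It had 0, 0 and 94 counts in Virgin, 0, 8 and 30 counts in Pregnant, 2, 1 and 240 counts in Lactating, and 191, 54 and 104 counts in Post-weaning libraries. Post-weaning was the stage at which all 3 libraries held more than a few counts (5.51 to 17.5 CPM), and the Lactating signal came from replicate 3, with 21.1 CPM. Epithelial markers made up 0.100% of counts in Virgin replicate 3 and 0.0753% in Lactating replicate 3. They made up 0.110%, 0.0576% and 0.0342% in the Post-weaning libraries, and 0.0131% to 0.0386% in the remaining libraries. The part of epithelial RNA in the Nqo1 counts was not tested. No fold change of Nqo1 can be read, its standard errors being 2.11 to 2.31 on the log2 scale.

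**Figure D2:**
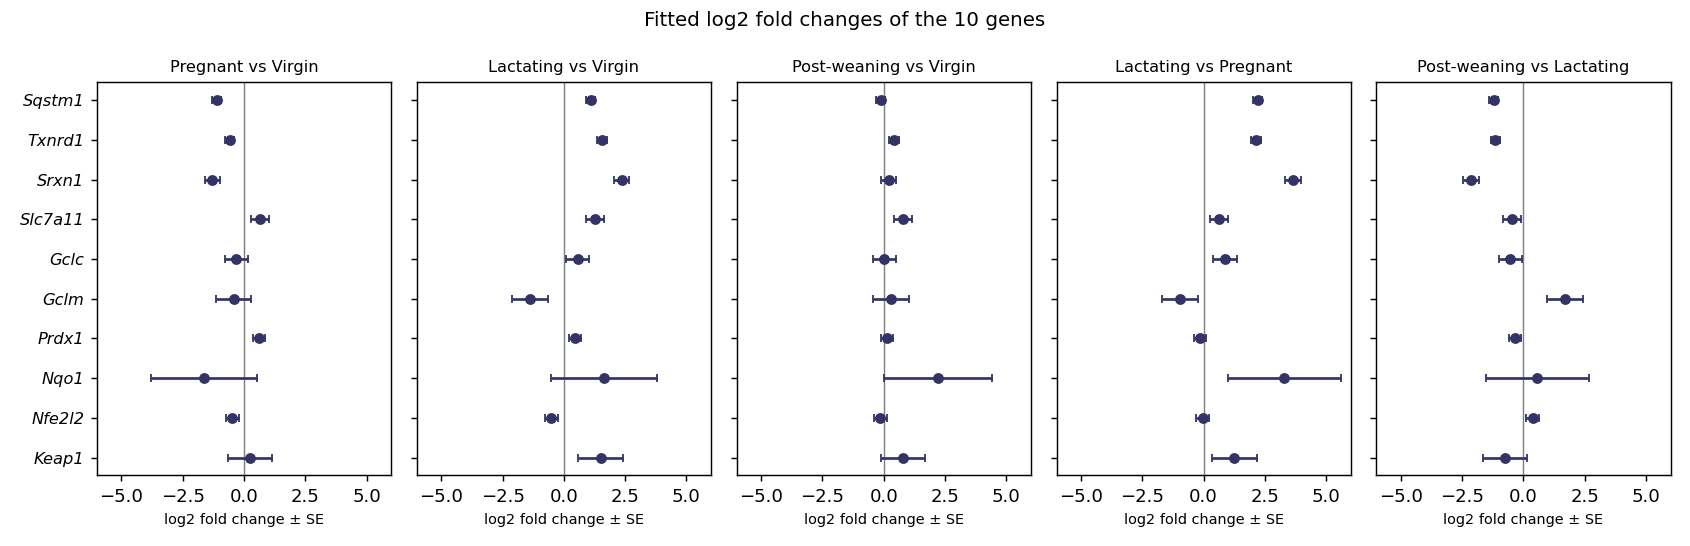
Fitted log2 fold change of each of the 10 genes (points, with bars of 1 SE) in the 5 comparisons, each panel the first-named stage over the second. Sqstm1, Txnrd1 and Srxn1 lie right of 0 with short bars in both Lactating comparisons and left of 0 in Post-weaning vs Lactating, while the bars of Nqo1, Keap1 and Gclm are wide.

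The counts of these genes past the threshold used for all genes (edgeR quasi-likelihood test, adjusted p under 0.05) are set beside the share of all 12672 genes tested, and nothing is read from them because the genes were chosen on these comparisons. In Pregnant vs Virgin, 1 of the 10 (Sqstm1) was past it and lower, where 0.876% of all genes were lower and 0.442% higher. The comparison of Lactating with Virgin libraries had 3 past it and higher, where 1.04% of all genes were higher and 0.9% lower. In Lactating vs Pregnant the same 3 genes, Sqstm1, Txnrd1 and Srxn1, were past it and higher, where 2.65% of all genes were higher and 1.2% lower. In Post-weaning vs Lactating they were past it and lower, where 0.466% of all genes were lower and 0.458% higher. In Post-weaning vs Virgin no gene of the 10 was past it, and neither was any of the 12672 (0%), although 765 genes (6.04%) had an unadjusted p under 0.05 and DESeq2 called 125.

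These counts depended on single libraries. In Pregnant vs Virgin none of the 10 was past the threshold without Virgin replicate 2 or without any of the 3 Pregnant libraries, and 2 were without Lactating replicate 3. In Post-weaning vs Lactating none was past it without any of the 3 Post-weaning libraries. Between 2 and 4 were past it in Lactating vs Virgin, and 3 in Lactating vs Pregnant, whichever of the 12 libraries was left out.

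Counted by overlap alone, 4 of the 10 genes were lower in every Pregnant than in every Virgin library (Sqstm1, Txnrd1, Srxn1 and Nfe2l2), beside 10.7% of all genes lower and 13.6% higher in this way. In Lactating vs Virgin 5 were higher without overlap (the same first 3, Slc7a11 and Prdx1), beside 8% of all genes higher and 9.34% lower, and in Lactating vs Pregnant 3 were, beside 9.5% higher and 17.1% lower. In Post-weaning vs Lactating 4 were lower without overlap (Sqstm1, Txnrd1, Srxn1 and Prdx1), beside 8.76%, and Gclm was higher, beside 12.8%. In Post-weaning vs Virgin only Slc7a11 of the 10 was higher without overlap, beside 8.83% of all genes higher and 6.55% lower. The median log2 fold change of the 10 genes was 1.19 in Lactating vs Virgin, where that of all genes was -0.06, and -0.45 in Pregnant vs Virgin, where that of all genes was 0.03.

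Genes that respond when tissue is dissociated into cells moved between stages as well. A list of 18 such genes held 1.22% to 2.10% of counts in Virgin, 0.493% to 0.669% in Pregnant, 0.825% to 1.01% in Lactating and 1.56% to 1.74% in Post-weaning libraries. In Pregnant vs Virgin 9 of the 18 fell, beside 0.876% of all genes, among them the early-response factors Fos (log2 fold change -1.67, adjusted p = 0.00681) and Egr1 (-2.54, adjusted p = 0.00702) in edgeR's quasi-likelihood test, in the same direction as Sqstm1, Txnrd1 and Srxn1. Of the same list 2 fell and none rose in Lactating vs Virgin, beside 0.9% of all genes lower, in the direction opposite to these 3 genes. Of these falls, that of Fos held with each library left out, and that of Egr1 held in 2 of 12 fits, those without Virgin replicate 1 or Lactating replicate 3. In Lactating vs Pregnant 5 rose, beside 2.65% of all genes. The part of this list in the levels of the NRF2 genes was not tested.

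Across the 12 libraries the 10 genes had little in common. Over their 45 pairs the median Pearson correlation of log2 CPM was 0.0468, 21 pairs were below 0 and 4 were above 0.7. The highest were Sqstm1 with Srxn1 (0.963), Txnrd1 with Srxn1 (0.931) and Sqstm1 with Txnrd1 (0.907), which were 0.951, 0.934 and 0.907 without Lactating replicate 3. The remaining one, Gclm with Nfe2l2, was 0.848 over 12 libraries and 0.395 over the 11 without Lactating replicate 3. Other pairs moved as well when that library was left out. Nfe2l2 went from -0.163 to 0.548 with Sqstm1, from -0.2 to 0.441 with Srxn1 and from -0.479 to -0.746 with Prdx1. Gclm with Nqo1 went from -0.0927 to 0.749. These correlations describe libraries that share stages and depth.

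**Figure D3:**
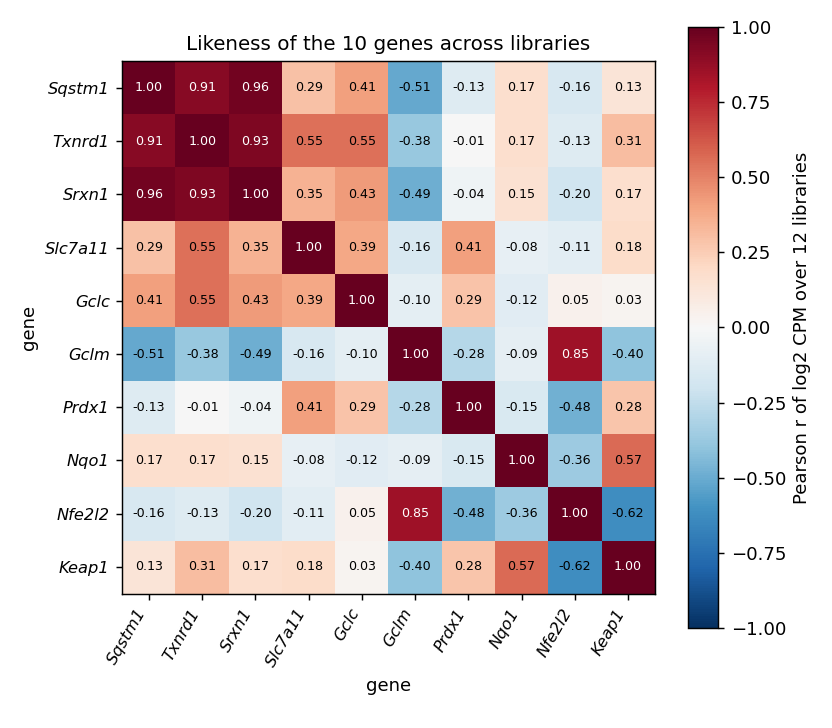
Pearson correlation of log2 CPM between each pair of the 10 genes over 12 libraries (colour scale from -1 to 1, value printed in each cell). Sqstm1, Txnrd1 and Srxn1 form a block of 0.91 to 0.96, Gclm and Nfe2l2 reach 0.85, and most other cells lie near 0 or below it.

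The genes whose course was most like Sqstm1 were named by the highest Pearson correlation of log2 CPM over the 12 libraries among 7208 genes with a mean log2 CPM of at least 3. They were Ebi3, a subunit of the cytokine interleukin-27 (0.973), Clic4, a chloride intracellular channel protein (0.971), Dot1l, a histone H3 lysine methyltransferase (0.970), and Mbnl2, an RNA-binding splicing regulator (0.969). Without Lactating replicate 3 the correlations of these 4 genes were 0.976, 0.962, 0.963 and 0.960, and their ranks 5, 19, 17 and 24. Clic4 measured 337, 413 and 497 CPM in Virgin, 214, 218 and 223 CPM in Pregnant, 1016, 1143 and 1148 CPM in Lactating, and 366, 435 and 367 CPM in Post-weaning libraries, with no overlap between Lactating and the other stages.

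Against the mean of the 10 standardised profiles, the closest were Gm20056 (0.942), Klra17, a lectin-like receptor gene (0.924), Il10, which encodes the anti-inflammatory cytokine interleukin-10 (0.916), Txnl4a, a spliceosome protein (0.900), Mtss1, an actin-binding protein (0.888), Ifi27, an interferon-induced gene (0.884), Col11a2, a collagen chain (0.884), and a gene without a symbol (0.882). Without Lactating replicate 3 Gm20056 and Klra17 kept ranks 1 and 2, Il10 and Txnl4a ranked 5 and 6, Col11a2 13, Mtss1 26, the gene without a symbol 27 and Ifi27 43, with correlations of 0.862 to 0.930. Il10 measured 169, 146 and 232 CPM in Virgin, 105, 71.9 and 134 CPM in Pregnant, 1183, 1238 and 491 CPM in Lactating, and 459, 312 and 434 CPM in Post-weaning libraries. That mean profile itself followed Txnrd1 (0.896), Srxn1 (0.746) and Sqstm1 (0.704) and not Nfe2l2 (-0.0375) or Gclm (-0.131). Without Lactating replicate 3 these correlations were 0.905, 0.807, 0.774, 0.259 and 0.099, in the same order.

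Whether other NRF2 targets followed was examined in 37 further genes, of which 32 passed the filter on low counts. Unlike the 10 genes, these were called by edgeR's quasi-likelihood test with adjustment over all 12672 genes, though the list was written with earlier results of these data known. Of these, 1 rose and 1 fell in Lactating vs Virgin (1.94% of all genes were called in either direction), and the median log2 fold change was 0.37. In Lactating vs Pregnant 4 rose and 2 fell (3.85% of all genes), with a median of 0.20. In Pregnant vs Virgin 3 rose and 1 fell (1.32% of all genes), with a median of 0.11. In Post-weaning vs Lactating 1 rose (0.923% of all genes), with a median of 0.07. In Post-weaning vs Virgin none was called, and neither was any of the 12672 genes. The median there was 0.46, where that of all genes was 0.02, and 27 of the 32 were above 0. Without overlap 11 were higher and 1 lower, beside 8.83% and 6.55% of all genes. In Lactating vs Virgin 11 were higher and 2 lower in this way, beside 8% and 9.34%.

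Hmox1, heme oxygenase, which splits heme and is a target of both NRF2 and BACH1, measured 74.0, 80.0 and 187 CPM in Virgin, 55.9, 54.5 and 54.5 CPM in Pregnant, 192, 230.2 and 394 CPM in Lactating, and 132, 163 and 138 CPM in Post-weaning libraries. It rose in Lactating vs Pregnant (log2 fold change 2.31 ± 0.37, edgeR adjusted p = 0.00578). In Lactating vs Virgin the Lactating libraries were higher without overlap, but the log2 fold change of 1.26 ± 0.36 did not pass (edgeR adjusted p = 0.112). It passed by DESeq2 (adjusted p = 0.0238). Of the 12 edgeR fits with a library left out it passed in 1, that without Virgin replicate 3 (1.82, edgeR adjusted p = 0.0251). The lowest value was 0.85, without Lactating replicate 3 (edgeR adjusted p = 0.233).

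Tkt, transketolase of the pentose phosphate pathway that supplies NADPH, measured 118, 122 and 137 CPM in Virgin, 183, 144 and 160 CPM in Pregnant, 264, 304 and 326 CPM in Lactating, and 173, 155 and 186 CPM in Post-weaning libraries. It rose in Lactating vs Virgin (log2 fold change 1.25 ± 0.18, edgeR adjusted p = 0.00499), and that call held with each library left out. In Lactating vs Pregnant it rose too (0.88 ± 0.18, edgeR adjusted p = 0.0163); this call, named here after its values were seen, held in 9 of 12 fits with a library left out, all but those without Pregnant replicate 2, Pregnant replicate 3 or Lactating replicate 2.

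Mt1, a metallothionein that binds zinc and scavenges oxidants, was low in Pregnant and high in Lactating libraries, with 1084, 1314 and 1290 CPM in Virgin, 538, 512 and 649 CPM in Pregnant, 1851, 2373 and 1507 CPM in Lactating, and 1137, 959.8 and 1019 CPM in Post-weaning libraries. It fell in Pregnant vs Virgin (log2 fold change -1.12 ± 0.21, edgeR adjusted p = 0.0241) and rose in Lactating vs Pregnant (1.75 ± 0.21, edgeR adjusted p = 0.000892). Fth1, the ferritin heavy chain that stores iron, averaged 16591 ± 769 CPM in Lactating and 9634 ± 950.0 CPM in Pregnant libraries (SD, n = 3 each) and rose (0.78 ± 0.18, edgeR adjusted p = 0.0344); it was named after its values were seen, and its call held in 1 of 12 fits with a library left out, the one without Lactating replicate 3.

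Other targets had their highest mean in pregnancy. Gsr, glutathione reductase, measured 106, 76.8 and 78.1 CPM in Virgin, 289.9, 365 and 369 CPM in Pregnant, 39.3, 88.3 and 157 CPM in Lactating, and 107, 199 and 142 CPM in Post-weaning libraries. It rose in Pregnant vs Virgin (log2 fold change 1.97 ± 0.42, edgeR adjusted p = 0.0465) and fell in Lactating vs Pregnant (-1.85 ± 0.42, edgeR adjusted p = 0.0306). Txn1, the thioredoxin that TXNRD1 reduces, also rose in Pregnant vs Virgin, averaging 268 ± 54.0 CPM in Pregnant and 110.5 ± 31.8 CPM in Virgin libraries (1.28 ± 0.24, edgeR adjusted p = 0.0254). Taldo1, transaldolase of the pentose phosphate pathway, rose likewise, averaging 590.5 ± 36.1 CPM in Pregnant and 295 ± 37.8 CPM in Virgin libraries (1.00 ± 0.20, edgeR adjusted p = 0.0324). In Lactating libraries Txn1 measured 157, 186 and 189 CPM and Taldo1 456, 464 and 616 CPM. Both were above every Virgin library there, Taldo1 overlapped its Pregnant libraries, and neither was called in Lactating vs Pregnant.

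These 4 calls of Pregnant vs Virgin were close to the threshold. None of them held without Virgin replicate 2, Virgin replicate 3, any of the 3 Pregnant libraries or Post-weaning replicate 2, 1 held without Post-weaning replicate 3, and 2 held without Virgin replicate 1 or Post-weaning replicate 1. The 6 calls of Lactating vs Pregnant were 3 without Pregnant replicate 2 or Pregnant replicate 3, and Gsr's adjusted p ranged from 0.0025 to 0.108 over the libraries left out.

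Sesn2, sestrin 2, a stress-induced gene placed downstream of both NRF2 and ATF4, was nearly absent in lactation. It had 883 counts over the 3 Virgin, 851 over the Pregnant, 3 over the Lactating (3, 0 and 0) and 797 over the Post-weaning libraries. It fell in Lactating vs Virgin (edgeR adjusted p = 0.00505) and in Lactating vs Pregnant (edgeR adjusted p = 0.00331) and rose in Post-weaning vs Lactating (edgeR adjusted p = 0.00944). Pooled over libraries, its level in Lactating was 0.00525 times that in Virgin libraries, with an exact 95% interval of 0.00108 to 0.0154 that covers counting error only. These calls held with each library left out.

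**Figure D4:**
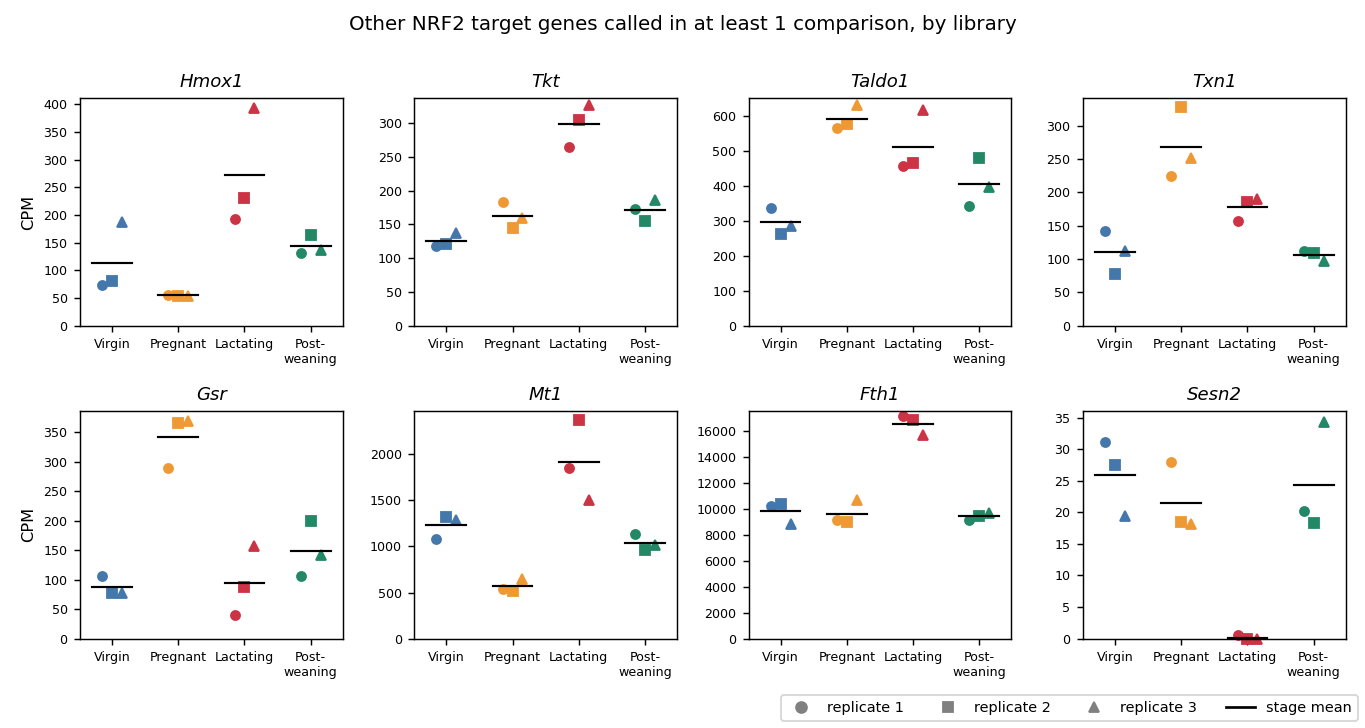
Level in CPM (vertical axes, linear, starting at 0) of the 8 other NRF2 target genes called in at least 1 comparison, by stage; points are libraries, shapes replicate numbers, lines stage means of 3. Hmox1, Tkt, Mt1 and Fth1 have their highest means in Lactating libraries, and Gsr, Txn1 and Taldo1 in Pregnant libraries. Taldo1 overlaps between these stages, and Sesn2 is at or near 0 in Lactating libraries.

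Among 26 genes for enzymes and proteins of thiol and peroxide metabolism (thioredoxins, glutaredoxins, peroxiredoxins, superoxide dismutases, catalase, and enzymes that use or renew glutathione or reduce methionine sulfoxide), 5 of which also stood on the list of targets, 25 were tested. In Pregnant vs Virgin 4 rose, beside 0.442% of all genes: Gsr and Txn1, above, Gsto1, a glutathione transferase (log2 fold change 1.23, edgeR adjusted p = 0.0188), and Msrb1, a methionine sulfoxide reductase (1.46, edgeR adjusted p = 0.0318). In Lactating vs Pregnant 4 fell and none rose, beside 1.2% of all genes lower: Gsr, Gsto1 (-1.09, edgeR adjusted p = 0.0151), Msrb1 (-1.32, edgeR adjusted p = 0.0247) and Gpx3, the secreted glutathione peroxidase (edgeR adjusted p = 0.0268). Gpx3 had 16 counts over the Lactating, 1647 over the Pregnant and 3767 over the Virgin libraries, and it fell in Lactating vs Virgin as well (edgeR adjusted p = 0.0176). Several of these calls rested on single libraries: over the 12 libraries left out in turn, Gsto1 held in 8 and Msrb1 in 3 fits for Pregnant vs Virgin, and Gsto1 in 10, Msrb1 in 8 and Gpx3 in 8 for Lactating vs Pregnant, while Gpx3 in Lactating vs Virgin was lost without Virgin replicate 1. In the comparison of Lactating with Pregnant libraries, Txnrd1 and Srxn1 were thus higher while the called genes of this list fell.

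Of 18 genes for NRF2 partners, competitors and regulators, 17 were tested. In Lactating vs Pregnant 2 rose, Bach1 and Cdkn1a, beside 2.65% of all genes. In Pregnant vs Virgin 1 fell, Cdkn1a, beside 0.876% of all genes, and none was called in the other comparisons. Of the 17, 2 had a log2 fold change above 0 in Pregnant vs Virgin, with a median of -0.50, where that of all genes was 0.03. Without overlap 9 were lower and 1 higher there, beside 10.7% and 13.6% of all genes. An unadjusted edgeR p under 0.05 was reached by 6 of them, beside 12.2%. Bach1, which competes with NRF2 for its elements, measured 62.7, 66.8 and 66.2 CPM in Virgin, 32.2, 34.0 and 38.9 CPM in Pregnant, 135, 143 and 38.7 CPM in Lactating, and 42.4, 49.9 and 55.6 CPM in Post-weaning libraries. It rose in Lactating vs Pregnant at the edge of the threshold (log2 fold change 1.59 ± 0.40, edgeR adjusted p = 0.0498), and without Lactating replicate 3, which lay at the Pregnant level, the value was 1.93 (edgeR adjusted p = 0.000326); that was the only one of the 12 fits with a library left out in which the call held. Without that library Bach1 also passed in Lactating vs Virgin (1.04, edgeR adjusted p = 0.0263).

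Cdkn1a, the cell-cycle inhibitor p21, whose product can shield NRF2 from KEAP1, fell in Pregnant vs Virgin (log2 fold change -1.92, edgeR adjusted p = 0.00702) and rose in Lactating vs Pregnant (2.19, edgeR adjusted p = 0.000991). Mafg, a small MAF partner, averaged 73.1 ± 27.6 CPM in Lactating and 33.1 ± 2.02 CPM in Pregnant libraries (SD, n = 3 each), which did not pass (log2 fold change 1.15 ± 0.34, edgeR adjusted p = 0.0958). With a library left out, Mafg passed in 1 of 12 fits (edgeR adjusted p = 0.0472).

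ATF4, the transcription factor of the integrated stress response, also drives Slc7a11 and Sesn2. Of 18 genes listed for it, 16 were tested. In Pregnant vs Virgin 1 fell, beside 0.876% of all genes. In Lactating vs Pregnant 1 rose and 1 fell, beside 2.65% of all genes higher and 1.2% lower. In Lactating vs Virgin 1 fell (0.9% of all genes), and in Post-weaning vs Lactating 1 rose (0.458%). Cebpb fell in Pregnant vs Virgin (log2 fold change -1.11, edgeR adjusted p = 0.0471) and rose in Lactating vs Pregnant (1.71, edgeR adjusted p = 0.0026), and Sesn2 was called as above. The fall of Cebpb held in 2 of the 12 fits with a library left out, those without Virgin replicate 1 or Lactating replicate 3, and its rise in all 12. Atf4 itself averaged 107 ± 39.4 CPM in Virgin, 64.6 ± 6.07 CPM in Pregnant, 115 ± 30.1 CPM in Lactating and 107 ± 9.70 CPM in Post-weaning libraries (SD, n = 3 each) and was called in no comparison. Slc3a2, the heavy chain that pairs with SLC7A11, measured 1021, 1045 and 486 CPM in Lactating, against 518, 614 and 652 CPM in Virgin libraries. It did not pass in Lactating vs Virgin (0.52 ± 0.27, edgeR adjusted p = 0.351), and without Lactating replicate 3 it did (0.75, edgeR adjusted p = 0.0301). In Lactating vs Pregnant, Slc3a2 passed only in 1 of 12 fits with a library left out (edgeR adjusted p = 0.00381).

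SQSTM1 works with other autophagy receptors and the ATG8 proteins, and none of 15 genes for these and the autophagy machinery, all tested, was called in any of the 5 comparisons by edgeR. An unadjusted p under 0.05 was reached by 3 of the 15 in Lactating vs Virgin, beside 16.8% of all genes, with a list median log2 fold change of -0.25, and by 1 in Lactating vs Pregnant, beside 18.6%, with a median of 0.07. The other comparisons had 2 such genes in Pregnant vs Virgin (12.2% of all genes), 1 in Post-weaning vs Virgin (6.04%) and 1 in Post-weaning vs Lactating (15.1%). Without overlap, 5 of the 15 were lower and none higher in Pregnant vs Virgin, beside 10.7% and 13.6% of all genes. Of 6 genes for the phagocyte NADPH oxidase, the source of superoxide in macrophages, 2 rose in Lactating vs Pregnant, beside 2.65% of all genes. They were Rac2 (log2 fold change 1.70, edgeR adjusted p = 0.00453) and Ncf4 (0.99, edgeR adjusted p = 0.00908). The call of Ncf4 did not hold without Pregnant replicate 1 or Pregnant replicate 2.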

How the data were processed

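RNA came from freshly sorted cells, and cDNA was made from 2000 cells per library with a full-length low-input kit without molecular identifiers, all sequenced in 1 run, per the labels' protocols. The authors deposited unnormalized read counts for each gene, together with a gene length in bases; the counts came from featureCounts and the mm10 genome, per the submitters' processing notes. No aligner, sort gate or strand setting is given in the sources used here. Symbols and 1-based coordinates were taken from a RefSeq table of GRCm38.p6 (25275 of 27179 genes; the rest held at most 0.825% of a library's counts), and exon overlaps from GENCODE M21.

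The genes described and all gene lists were chosen with earlier results of these data known. filterByExpr left 12672 genes, among them all 10 described here; Nqo1 was at 0 counts in 3 libraries. edgeR 4.0.16 (R 4.3.3) with TMM scaling fitted the 12 libraries together by robust quasi-likelihood, with 1 coefficient for each stage, with Benjamini-Hochberg adjustment over all genes tested and a threshold of 0.05; adjusted p-values are from this fit unless DESeq2 is named. A standard error is the size of the log2 fold change divided by the square root of its F statistic. The common biological coefficient of variation was 0.856, and p-values measure the spread between libraries labelled as biological replicates. log2 CPM for correlations used a prior count of 2. Further genes named were 6 fixed ones (Hmox1, Gsr, Slc3a2, Atf4, Bach1, Mafg), up to 3 called genes of each list per comparison by smallest adjusted p, and the genes most correlated in level. On data simulated with the spread of these libraries, the fit missed part of the large changes put in, so a gene not called may still differ. The pass marks of that check were set after its output was seen. Alternatives were RLE scaling, no filter on low counts, the replicate number as a block, DESeq2 1.42.0, and leaving out each library in turn. Post-weaning and Pregnant libraries were not compared with each other.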

Additional observations from a re-analysis of the deposited data

How the results depend on the processing

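With 3 libraries per stage, counts of called genes moved with the tool and with single libraries. DESeq2 called 656 genes in Pregnant vs Virgin, 1173 in Lactating vs Virgin, 125 in Post-weaning vs Virgin, 1465 in Lactating vs Pregnant and 919 in Post-weaning vs Lactating, against 167, 246, 0, 488 and 117 by edgeR. Among the other NRF2 targets it called 10, 1 and 4 in Lactating vs Virgin, Post-weaning vs Virgin and Post-weaning vs Lactating, against 2, 0 and 1, and of the 10 genes 3 in Pregnant vs Virgin, against 1. RLE scaling and no filter kept every such count within 1.5 times. Leaving out each library in turn gave 40 to 438, 111 to 416, 0 to 10, 194 to 689 and 26 to 242 genes in the 5 comparisons, in the order above. For the other targets it gave 0 to 4, 2 to 4, 3 to 7 and 1 to 4 in Pregnant vs Virgin, Lactating vs Virgin, Lactating vs Pregnant and Post-weaning vs Lactating, and for the 10 genes 0 to 2 in Pregnant vs Virgin and 0 to 3 in Post-weaning vs Lactating.

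Replicate numbers did not pair the libraries: over 18 same-numbered pairs of libraries of different stages, deviations from the stage means correlated between -0.0683 and 0.0726. A replicate block gave 100, 139 and 42 called genes in Pregnant vs Virgin, Lactating vs Virgin and Post-weaning vs Lactating, and 0 of the other targets in Pregnant vs Virgin. Of 800 alternative log2 fold changes of the 10 genes, 8 moved by more than the spread between libraries, all of them of Nqo1. Among the 6 further genes followed in every comparison, uncalled values changed sign when a library was left out for Mafg in Pregnant vs Virgin (-0.26 to 0.26; positive without Virgin replicate 2), Atf4 in Lactating vs Virgin (-0.17 to 0.41; negative without Virgin replicate 1, at -0.15, or Lactating replicate 3), Atf4 in Post-weaning vs Lactating (-0.18 to 0.19; positive without Lactating replicate 3) and Gsr in Lactating vs Virgin (-0.50 to 0.47; negative without Lactating replicate 3, and -0.02 with the block). Of the 10 genes, uncalled values also turned for Gclm (-0.71 to 0.13) and Keap1 (-0.30 to 0.76) in Pregnant vs Virgin, Nfe2l2 (-0.30 to 0.20) and Prdx1 (-0.35 to 0.11) in Lactating vs Pregnant, Keap1 (-1.11 to 0.53) in Post-weaning vs Lactating, and Nqo1 in 3 comparisons. In Post-weaning vs Virgin, values turned for Gclc (-0.32 to 0.46), Gclm (-0.01 to 0.86), Sqstm1 (-0.21 to 0.01) and Atf4 (-0.22 to 0.31). The causes were not tested. Gclm and Nqo1 had few counts. Keap1 had 12 counts in Virgin replicate 2 and 1091 in Lactating replicate 3, both far from its other libraries. This limits any statement about Gclm, Nqo1 and Keap1.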
